A study of Mus musculus with 24 samples.

Results

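The 10 genes described here belong to the response of the liver to glucagon through cyclic AMP (cAMP) and the transcription factor CREB: the receptor gene Gcgr, the factor Creb1 and its coactivator Crtc2, the repressor gene Crem, the phosphodiesterases Pde4b and Pde4d, and the target genes Kiss1, Sik1, Ppargc1a and Nr4a1. They were chosen by symbol after Kiss1 had been seen to fall, and Sik1 to be lower, in HFepa mice compared with reference mice, so the values of that comparison are given as a description with no test. On the array, 34 probes carried 1 of these names, and 24 of them, with at least 1 for each of the 10 genes, passed the filter on dim probes, out of 30003 probes for 20192 gene names. To pass, a probe had to exceed its background clearly, by the scanner software's mark, in 75% or more of the mice of any 1 group. Each gene was read from its brightest tested probe, in log2 units of quantile normalised signal.

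RNA came from the liver of 24 male C57Bl6J mice of the third generation of 2 lineages, killed while fasting, with 1 Agilent 1-colour array per mouse. The labels give no age. Reference mice (n = 9) descended from parents fed a diet with high-oleic sunflower oil, the control lineage, and received a low-fat diet. HFoleic mice (n = 8) were of the same lineage and received an obesogenic diet rich in both fat and sucrose. HFepa mice (n = 7) received that obesogenic diet and descended from a lineage fed fish oil rich in eicosapentaenoic acid (EPA). The EPA lineage has no low-fat group here, so lineage and diet differ at once between HFepa and reference mice. Nothing in the labels ties a mouse to a litter or cage.

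Glucagon is the pancreatic hormone of the fasting state. Its receptor on hepatocytes acts through a stimulatory G protein and adenylyl cyclase to raise cAMP, which frees the catalytic subunits of protein kinase A. The kinase phosphorylates CREB and, by restraining the salt-inducible kinases, lets the coactivator CRTC2 enter the nucleus, where both switch on genes of glucose production. Phosphodiesterases end the signal by degrading cAMP, and the CREM gene encodes a short repressor that is itself induced by CREB. Kiss1 encodes kisspeptin, best known as a neuropeptide of reproduction and, in the liver, as a glucagon-induced secreted peptide that restrains insulin release.

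The DNA before the start sites was read for the motif that CREB binds, the cAMP response element. Promoter sequences of RefSeq (build GRCm38.p6) were found for 7 of the 10 genes and not for Sik1, Crtc2 and Crem. In the 250 bases before the start, the full element TGACGTCA, a palindrome, was present in 0 of the 7 genes and in 1.77% of 27025 genes with a promoter. Its 5-letter core TGACG, searched on both strands and contained in the full element, was present in 4 of the 7 genes (Kiss1, Ppargc1a, Nr4a1 and Pde4b, the last in 1 of 4 start regions) and in 19.79% of all genes. Of the further pathway genes described below, 57 had a promoter sequence. The core was present in 31 of these 57 (54.39%) and the full element in 4 (7.02%), so the core is not particular to the 7 genes. Shown are the regions of the 3 genes that passed the test in the HFoleic comparison and of Nr4a1, which held the most core motifs, written 5′ to 3′ with core motifs in capitals (all on the opposite strand).
Kiss1 (chr1:133326962-133327211, plus strand): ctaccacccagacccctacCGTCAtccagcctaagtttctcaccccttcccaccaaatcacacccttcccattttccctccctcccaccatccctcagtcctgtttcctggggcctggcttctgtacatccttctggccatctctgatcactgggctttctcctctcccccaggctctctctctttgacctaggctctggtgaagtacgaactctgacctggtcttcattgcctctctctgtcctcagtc
Ppargc1a (chr5:51567726-51567975, minus strand): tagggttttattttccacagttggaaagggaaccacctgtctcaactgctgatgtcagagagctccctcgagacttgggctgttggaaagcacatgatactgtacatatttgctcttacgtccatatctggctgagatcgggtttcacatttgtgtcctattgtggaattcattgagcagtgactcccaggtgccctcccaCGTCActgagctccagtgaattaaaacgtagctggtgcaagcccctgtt
Gcgr (chr11:120530477-120530726, plus strand): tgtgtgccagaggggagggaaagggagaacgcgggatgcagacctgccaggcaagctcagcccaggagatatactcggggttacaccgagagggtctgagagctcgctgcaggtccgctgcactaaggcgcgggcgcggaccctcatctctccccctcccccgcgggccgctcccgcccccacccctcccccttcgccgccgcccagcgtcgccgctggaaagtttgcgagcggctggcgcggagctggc
Nr4a1 (chr15:101266596-101266845, plus strand): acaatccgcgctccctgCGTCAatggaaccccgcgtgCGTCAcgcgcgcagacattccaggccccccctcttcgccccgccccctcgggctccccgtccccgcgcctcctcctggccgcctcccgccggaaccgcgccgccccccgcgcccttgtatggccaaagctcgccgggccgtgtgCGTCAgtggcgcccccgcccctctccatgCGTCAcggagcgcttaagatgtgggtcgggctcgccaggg
The core motif lay 227 to 231 bases before the start in Kiss1 and 45 to 49 bases before it in Ppargc1a. Nr4a1 held 4, the nearest 36 to 40 bases before the start, in a region of 74.4% G and C against 55.6% for Kiss1. A match says nothing of occupancy, and the lack of one in Gcgr says only that these letters are not in this window.

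Between 50.89% and 60.83% of the probes of an array were well above background and 0 spots were saturated, so brightness did not cap any value. All 8 hepatocyte markers were well above background on all 24 arrays, and the log2 of their summed signal lay between 20.234 and 20.343. Such a sum is led by the brightest genes of a list. Of the mice, 3 stood apart in markers of other cell types. For HFepa replicate 7 the log2 of the summed signal of the pancreas markers was 10.671, where no other mouse was above 8.72. For reference replicate 3 that of the skeletal muscle markers was 10.241, where no other mouse was above 7.615. On the same log2 scale, reference replicate 5 had the highest summed signal of the stellate cell markers (15.527, against 14.783 in the next mouse), the bile duct markers (13.397 against 11.719) and the adipocyte markers (14.355 against 14.084). This mouse also had the highest reference value of Kiss1, Sik1, Ppargc1a, Crem and Pde4d. Values without it are therefore given beside the HFoleic differences of Kiss1, Sik1, Ppargc1a and Pde4d. For HFepa mice they are given for Kiss1, Sik1 and Ppargc1a, and for Crem the range over fits with 1 mouse left out is given. The part of other cells in those values was not tested. Between HFoleic and reference mice, 1 marker each of 3 lists passed (limma): Cidec of the adipocyte list differed by -1.72 on the log2 scale, Sox9 of the bile duct list by -0.65 and Lrat of the stellate cell list by 0.56. The lists did not move with these markers throughout. Below 0 were 2 of 4 adipocyte markers (median 0.03), 3 of 4 bile duct markers (-0.23) and 4 of 5 stellate cell markers (-0.09). A clock score, the mean standardised level of 7 Per-phase genes minus that of 4 Bmal1-phase genes, was -0.83 ± 1.02 (SD, n = 9) in reference, 0.71 ± 1.34 (n = 8) in HFoleic and 0.25 ± 2.07 (n = 7) in HFepa mice, and results with it in the fit are given where they move. In whole liver, fewer cells of a type and less RNA per cell cannot be told apart.

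The first comparison, HFoleic against reference, asked how the obesogenic diet changed these genes within the oleic lineage. Kiss1 was 0.482 times its reference level, Ppargc1a was 0.689 times and Gcgr was 1.16 times, and these were the 3 of 10 genes that passed the test (limma, adjusted p under 0.05 over all tested probes), 2 lower and 1 higher. Over all 20192 genes, 8.07% passed in this comparison, 4.52% higher and 3.55% lower. By probe, 5 of the 24 passed, against 7.23% of 30003. The median log2 change of the 10 genes was -0.16, and that of all tested probes -0.0007. This comparison shares its 9 reference mice with the one in which Kiss1 was noticed, so the Kiss1 value is not independent of that choice.

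**Figure D1:**
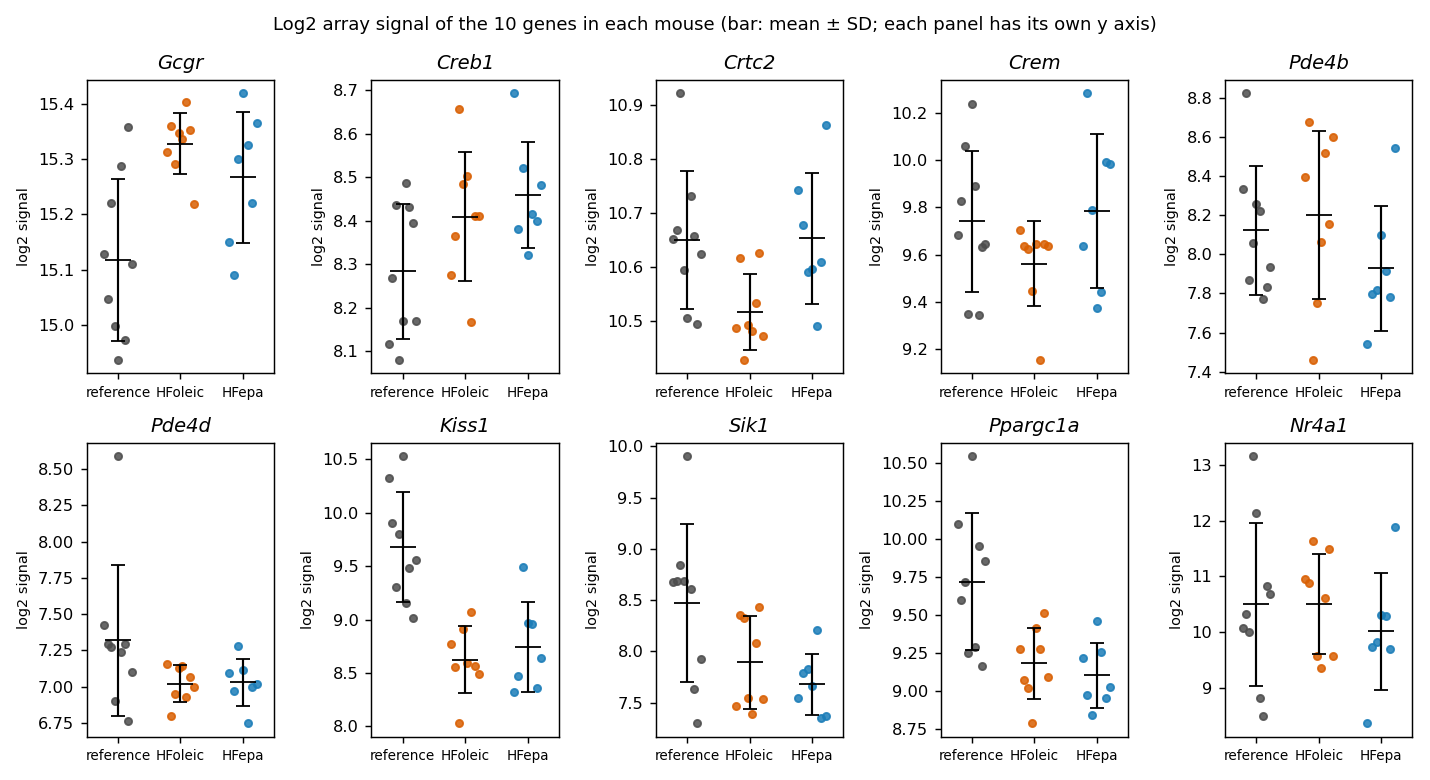
Log2 signal (y axis, its own range in each panel) of the 10 genes in each mouse of the reference (9), HFoleic (8) and HFepa (7) groups, with the group mean and SD as a black bar. Kiss1 lay below every reference mouse in 7 of 8 HFoleic mice, whereas Nr4a1 spread from 8.50 to 13.15 within the reference group.

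Gcgr, the glucagon receptor, was measured by 1 probe (chromosome 11, 120400221 to 120400280, mm9, from the scanner files). Its log2 signal ran from 14.94 over a median of 15.11 to 15.36 in reference mice, from 15.22 over 15.34 to 15.40 in HFoleic mice and from 15.09 over 15.30 to 15.42 in HFepa mice. All 8 HFoleic mice were above the reference mean, though only 2 were above every reference mouse, so the groups overlap. The receptor transcript rose by 0.21 ± 0.06 (SE) on the log2 scale in HFoleic mice (limma, adjusted p = 0.0322, 95% interval 0.09 to 0.33). The rise was 0.34, 0.10 and 0.18 within the 3 slides. It no longer passed without reference replicates 1 (0.21), 2 (0.20), 4 (0.20), 5 (0.19) or 7 (0.19) or without HFoleic replicates 2 (0.21), 4 (0.21), 6 (0.20) or 7 (0.21), with adjusted p up to 0.0658, and the log2 change was 0.16 with the clock score in the fit (adjusted p = 0.163). Of the 11 other ways of processing it passed in 7; it did not pass with the clock score, and neither did it with the 75th percentile of the processed signal (0.16, limma adjusted p = 0.208), no filter on dim probes (adjusted p = 0.0694) and the replicate block (0.0953).

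Creb1, the factor itself, had 5 tested probes. On the brightest, reference mice ran from 8.08 over 8.27 to 8.49, HFoleic mice from 8.17 over 8.41 to 8.66 and HFepa mice from 8.32 over 8.41 to 8.69. The 3 groups overlap widely, with a log2 difference of 0.13 (95% interval -0.02 to 0.27, limma adjusted p = 0.33) between HFoleic and reference mice. None of the other 4 probes passed either, and their differences ran from 0.07 to 0.30, all above 0.

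Crtc2, the coactivator that glucagon releases into the nucleus, lay within a narrow range. It spanned 10.49 to 10.92 (median 10.65) in reference, 10.43 to 10.63 (10.49) in HFoleic and 10.49 to 10.86 (10.61) in HFepa mice. In HFoleic mice 5 of 8 values were below every reference mouse, yet the log2 difference of -0.13 (95% interval -0.25 to -0.01) had a limma adjusted p of 0.179. The second probe differed by -0.13 as well (adjusted p = 0.374).

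Crem was read from 3 tested probes. Its brightest ran from 9.34 over 9.68 to 10.24 in reference, from 9.15 over 9.64 to 9.70 in HFoleic and from 9.37 over 9.79 to 10.29 in HFepa mice. Every HFoleic mouse was below the reference mean, and the log2 difference was -0.18 (95% interval -0.44 to 0.08, limma adjusted p = 0.458). With 1 mouse left out that difference ran from -0.23 to -0.12 and passed in 0 of 24 fits. The middle probe differed by -0.07 (95% interval -0.27 to 0.13, limma adjusted p = 0.735). The dimmest of the 3, annotated to another transcript, was lower than all reference mice in 5 of 8 HFoleic mice, with a difference of -0.22 and a limma adjusted p of 0.0515.

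The cAMP phosphodiesterases Pde4b and Pde4d did not pass. Pde4b spanned 7.77 to 8.83 (median 8.06) in reference, 7.46 to 8.68 (8.28) in HFoleic and 7.54 to 8.54 (7.82) in HFepa mice, and its HFoleic difference was 0.08 (95% interval -0.27 to 0.42, limma adjusted p = 0.845). The other tested Pde4b probes differed by -0.01 and -0.15. For Pde4d the values were 6.76 to 8.59 (7.27), 6.80 to 7.16 (7.03) and 6.75 to 7.28 (7.02). Reference replicate 5 alone carried the 8.59; the next reference mouse was at 7.43. With it the HFoleic difference was -0.30 (95% interval -0.62 to 0.02, limma adjusted p = 0.278), and without it -0.14 (adjusted p = 0.378). The other tested Pde4d probes differed by -0.30 (95% interval -0.52 to -0.07, limma adjusted p = 0.11), -0.04 and -0.17 with all mice in the fit, and none passed.

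Kiss1 had 2 probes, both tested, which lie on chromosome 1 at 135226240 to 135226299 and 135225978 to 135226037 (mm9). On the brighter one reference mice ran from 9.01 over 9.55 to 10.53, HFoleic mice from 8.03 over 8.58 to 9.07 and HFepa mice from 8.32 over 8.64 to 9.49. Only 1 HFoleic mouse reached into the reference range, and only 1 HFepa mouse did. The Kiss1 transcript fell by 1.05 ± 0.20 (SE) on the log2 scale in HFoleic mice (limma, adjusted p = 0.00237, 95% interval -1.46 to -0.65), and the second probe fell by 0.86 (adjusted p = 0.00614). Within the 3 slides the difference was -1.52, -1.14 and -0.53, and within the 2 rows of a slide -1.04 and -1.06. The call held in all 11 other ways of processing (-1.12 to -0.96) and in all 24 fits with 1 mouse left out (-1.13 to -0.95), including those without reference replicate 5 (-0.95, adjusted p = 0.00354) or 3 (-1.10, adjusted p = 0.00347). Beside the lower Kiss1, the log2 of the summed signal of the 4 tested adipocyte markers ran from 12.413 over 13.061 to 14.355 in reference and from 10.735 over 11.711 to 14.084 in HFoleic mice, with Cidec the 1 of 4 that passed and Adipoq, which defines adipocytes, too dim to be tested. The bile duct markers, 1 of 4 passing and lower (Sox9), ran from 10.447 over 10.932 to 13.397 and from 10.791 over 11.172 to 11.422. The stellate cell markers, 1 of 5 passing and higher (Lrat), ran from 13.868 over 14.373 to 15.527 and from 14.029 over 14.427 to 14.666. Below 0 were 2 of 4 adipocyte, 3 of 4 bile duct and 4 of 5 stellate cell markers, the last opposite to Lrat. Whether Cidec reads adipocytes in this liver RNA was not tested. The part of these cells in the fall of Kiss1, or in that of Ppargc1a given further on, was not tested either.

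Sik1, the salt-inducible kinase that is both a CREB target and a brake on CRTC2, had 1 probe (chromosome 17, 31981255 to 31981314, mm9). It ran from 7.30 over 8.68 to 9.90 in reference, from 7.39 over 7.81 to 8.43 in HFoleic and from 7.35 over 7.67 to 8.21 in HFepa mice. Of the reference mice, 6 were at 8.61 or above and 3 at 7.93 or below, and no mouse of either obesogenic group was below the lowest reference mouse. The HFoleic difference of -0.58 (95% interval -1.11 to -0.05) did not pass over all probes (limma adjusted p = 0.184), and it was -0.40 without reference replicate 5 (adjusted p = 0.297).

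Ppargc1a encodes PGC-1alpha, the coactivator that drives gluconeogenic and mitochondrial genes in fasting. Its brightest probe (chromosome 5, 51848928 to 51848987, mm9) ran from 9.17 over 9.72 to 10.54 in reference, from 8.79 over 9.18 to 9.51 in HFoleic and from 8.85 over 9.03 to 9.46 in HFepa mice. All 8 HFoleic mice were below the reference mean and 4 were below every reference mouse. The Ppargc1a transcript fell by 0.54 ± 0.15 (SE) on the log2 scale (limma, adjusted p = 0.0296, 95% interval -0.85 to -0.23), and its second probe fell by 0.53 (adjusted p = 0.0251). The study's own RT-qPCR marked no change of Ppargc1a between these groups, so that assay did not bear out the array fall. It did mark Irs2 and Pck1, described further on, as lower, while Kiss1 and Gcgr were not among its genes. The differences within slides were -0.91, -0.50 and -0.18. Without reference replicates 1 (-0.49) or 7 (-0.51), or HFoleic replicates 2 (-0.52), 3 (-0.51), 4 (-0.48) or 8 (-0.53), the adjusted p rose to between 0.0513 and 0.0653; without reference replicate 5 the difference was -0.44 (adjusted p = 0.0438) and without reference replicate 3 it was -0.54 (0.0452). It passed in 8 of the 11 other ways of processing, and not without the filter on dim probes (limma adjusted p = 0.0588), with only the 2 groups in the fit (0.0599) or by the methods' t-test (0.0917).

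Nr4a1, an orphan nuclear receptor induced within minutes by many stimuli, was the most variable of the 10. Reference mice ran from 8.50 over 10.32 to 13.15, HFoleic mice from 9.37 over 10.75 to 11.63 and HFepa mice from 8.36 over 9.83 to 11.89. The HFoleic difference was 0.01 with a 95% interval of -1.09 to 1.11 (limma adjusted p = 0.994). Its sign turned in 10 of 24 fits with 1 mouse left out.

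**Figure D2:**
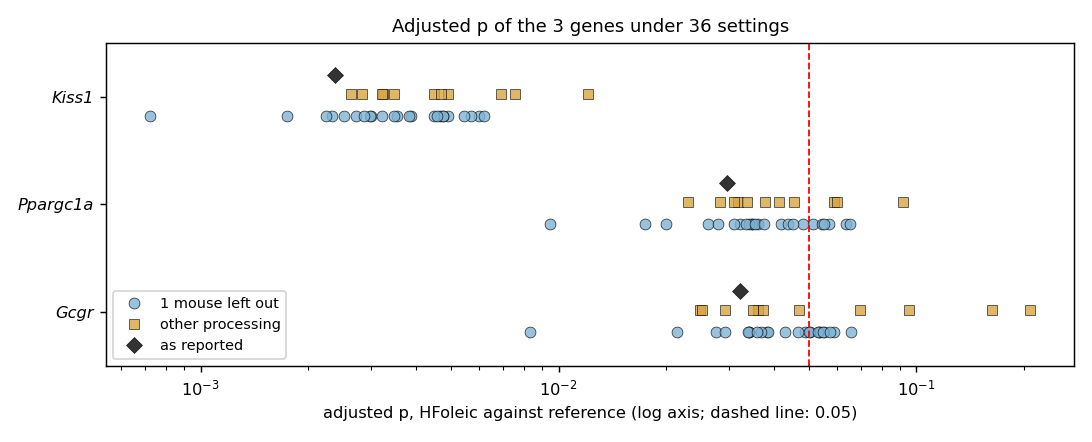
Limma adjusted p (x axis, log scale; the methods' t-test supplies 1 of the squares) of Kiss1, Ppargc1a and Gcgr in HFoleic against reference, as reported (diamonds), under other processing (11 squares per gene) and with 1 mouse left out (24 circles per gene). All Kiss1 points lie left of the dashed line at 0.05, while those of Ppargc1a and Gcgr lie on both sides of it.

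Around these genes, 63 of 69 further genes of the pathway were tested, in 7 hand-written lists, and 7 passed in HFoleic mice, all 7 lower (limma). Among all genes 8.07% passed in either direction and 3.55% were lower; the lists were written with earlier results of these mice known, so nothing particular to them is read from the count. Of 16 other CREB target genes, 4 passed. Pck1, the rate-setting enzyme of gluconeogenesis, ran from 16.14 to 17.00 in reference and from 15.72 to 16.43 in HFoleic mice and fell by 0.74 on the log2 scale (adjusted p = 0.000602 by limma). Irs2, the insulin receptor substrate that the liver induces in fasting, fell by 1.16 (limma adjusted p = 0.00169); reference mice spanned 11.18 to 12.92 and HFoleic mice 10.42 to 11.45. Tat, which degrades tyrosine, fell by 0.63 (limma adjusted p = 0.00858), and G6pc, the glucose-6-phosphatase catalytic subunit, by 0.52 (0.0087). In both the ranges of the 2 groups overlap, with Tat at 14.19 to 15.49 in reference and 13.99 to 14.73 in HFoleic mice. The other 12 targets did not pass, among them Cebpb (0.07, limma adjusted p = 0.67) and Junb (-0.23, 0.309), 2 factors also induced by growth signals, and 13 of the 16 were below 0, with a median of -0.28. Among all tested probes 50.2% were below 0 in this comparison.

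The remaining 3 passing genes sit in other lists. Pde3b, the phosphodiesterase by which insulin lowers cAMP, fell by 0.28 (limma adjusted p = 0.0114), with 1 of its 3 probes called. Rapgef4, which encodes a cAMP sensor independent of protein kinase A, fell by 0.41 (adjusted p = 0.0406 by limma). Creb5 fell by 0.35 (limma adjusted p = 0.00824), read from the only tested probe of 4. The median log2 signal of that probe was 16.93 in reference and 16.61 in HFoleic mice, against 16.90 and 16.09 for Pck1. Whether the probe reads Creb5 alone was not tested. Pde4c and Pde4a, the brightest of the other phosphodiesterases that did not pass, differed by 0.19 and -0.22, and Creb3l3 and Crebbp of the CREB family by 0.03 and -0.12.

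Upstream of CREB the counts were 0 of 9 for receptor coupling and adenylyl cyclases and 1 of 10 for protein kinase A, its inhibitors and the cAMP sensors. Gnas, the stimulatory G protein, differed by 0.04 and Adcy9 by -0.05, and the regulatory subunits Prkar2a and Prkar1a by -0.11 and -0.09. The kinases and phosphatases of CRTC had 0 of 9, with Sik3 at -0.17 on its brightest probe (limma adjusted p = 0.0907; the other of its 2 probes was called) and the calcineurin subunit Ppp3ca at -0.07. The hormone's own transcript Gcg (5.71 to 6.70 over reference and HFoleic mice) and that of the kisspeptin receptor Kiss1r (5.99 to 6.88), each with 1 of 2 probes tested, did not pass. With the clock score in the fit, 3 of the 63 genes passed (Pck1, Irs2 and Tat), and without reference replicate 5 it was 6, Rapgef4 then having an adjusted p of 0.0504.

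**Figure D3:**
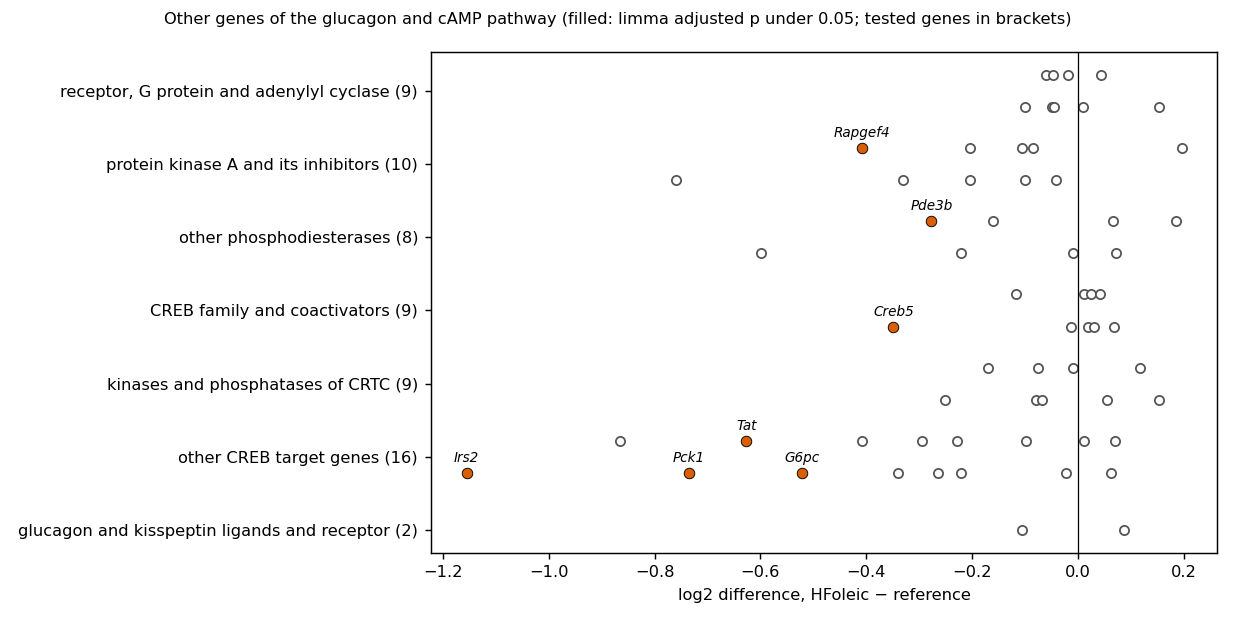
Log2 difference between HFoleic and reference means (x axis) of the 63 tested pathway genes, 1 point per gene, in the 7 lists (y axis, tested genes in brackets; points are spread vertically for legibility). The 7 filled points passed the test and all lie left of 0, 4 of them among the other CREB target genes.

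The second comparison, HFepa against HFoleic, asked whether the lineage altered the genes under the same diet. None of the 10 genes passed, and neither did any of the 30003 probes (0%) or 20192 genes (0%) by limma; 2910 probes had an unadjusted p under 0.05, and the methods' t-test called 0 as well. Kiss1 differed by 0.12 (95% interval -0.31 to 0.55). Sik1 differed by -0.21 (-0.77 to 0.35), Ppargc1a by -0.08 (-0.41 to 0.26) and Gcgr by -0.06 (-0.19 to 0.07). Nr4a1, at -0.49, had an interval of -1.67 to 0.68. The only brightest probe with an unadjusted p under 0.05 was that of Crtc2, higher by 0.14 in HFepa mice (0.01 to 0.26, limma adjusted p = 0.483), and its second probe differed by 0.24 (0.07 to 0.41, adjusted p = 0.32) with all 7 HFepa mice above the HFoleic mean. Crem differed by 0.22 (-0.06 to 0.51), Pde4b by -0.27 (-0.64 to 0.09), Creb1 by 0.05 (-0.11 to 0.21) and Pde4d by 0.01 (-0.33 to 0.35). Among the pathway genes 0 of 63 passed (5 at an unadjusted p under 0.05), with Irs2 at 0.70 (limma adjusted p = 0.267) and Pck1 at 0.44 (0.201). The study's own RT-qPCR did mark Irs2 as higher in HFepa than in HFoleic mice. That assay marked no change of Pck1 or Ppargc1a between these 2 groups.

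**Figure D4:**
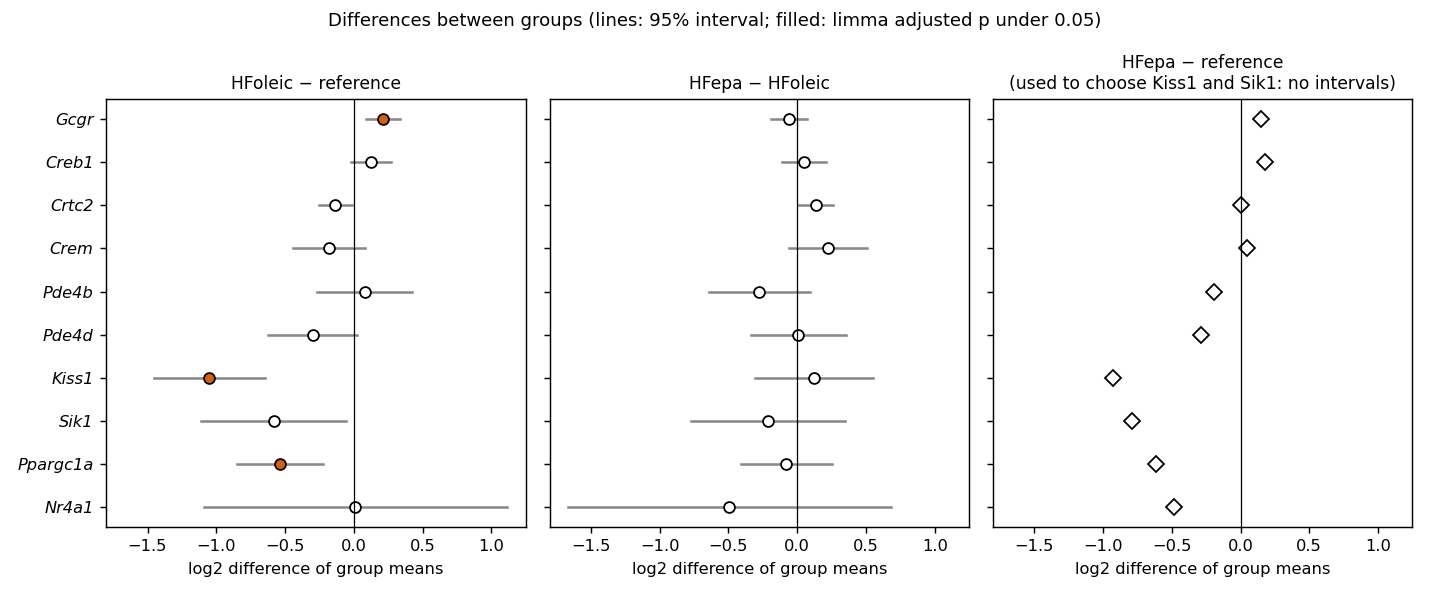
Log2 difference of group means (x axis) of the 10 genes in HFoleic against reference, HFepa against HFoleic and HFepa against reference, with 95% intervals as lines in the first 2 panels and filled points for limma adjusted p under 0.05. Kiss1 and Ppargc1a lie left of 0 and Gcgr right of it in the first panel, and no gene is filled in the second.

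For HFepa against reference, the comparison used in choosing the genes, the log2 differences were -0.93 for Kiss1 (-0.82 on its second probe), -0.79 for Sik1, -0.62 for Ppargc1a, -0.48 for Nr4a1, -0.29 for Pde4d, -0.20 for Pde4b, 0.00 for Crtc2, 0.05 for Crem, 0.15 for Gcgr and 0.18 for Creb1. By the threshold used elsewhere 1 of the 10 genes, Kiss1, counted as called, where 0.391% of all genes and 0.393% of all probes did; the gene was chosen from this comparison, and nothing is read from that count. Kiss1 was past the threshold in 4 of 11 other ways of processing and in 13 of 24 fits with 1 mouse left out, and not in those without reference replicate 5 or HFepa replicate 7. All 7 HFepa mice were below the reference mean of Kiss1, of Sik1 and of Ppargc1a, and 6, 0 and 4 of them were below every reference mouse. Beside these, HFoleic mice differed from the same reference mice by -1.05, -0.58 and -0.54. Without reference replicate 5 the HFepa differences were -0.82, -0.61 and -0.51. Of the 63 pathway genes 0 were called (12 at an unadjusted p under 0.05), and 14 of the 16 other CREB targets were below 0. Among all 30003 tested probes, 4040 had an unadjusted limma p under 0.05 and 48.3% were below 0. The lists were written with earlier results known, so nothing is read from these counts.

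How the 10 genes varied together was read within groups, which the choice of genes did not use. For each of 45 pairs, deviations from the group means were correlated over the 24 mice, with two-sided permutation p-values (100000 resamples within groups) adjusted over the pairs by Benjamini-Hochberg. No pair passed (0 by Pearson and 0 by Spearman, 7 with an unadjusted Pearson p under 0.05). The lowest p was that of Kiss1 with Creb1, Pearson r = -0.61 (permutation p = 0.00341, adjusted 0.084) and Spearman rho = -0.61 (permutation p = 0.00407, adjusted 0.183). That r was -0.56 without the 2 mice farthest from the median of Kiss1, and -0.49, -0.73 and -0.73 within the 3 slides. Ppargc1a with Pde4d had r = 0.67 (permutation p = 0.00539, adjusted 0.084) and rho = 0.42 (permutation p = 0.0528, adjusted 0.427), and r was 0.41 without the 2 mice farthest from the median of Ppargc1a. Kiss1 with Pde4d had r = 0.57 (permutation p = 0.0056, adjusted 0.084) and rho = 0.51 (permutation p = 0.0137, adjusted 0.206), and r fell to 0.37 by the same step. The target genes Kiss1, Sik1 and Ppargc1a had r between 0.41 and 0.47 with each other, all adjusted permutation p 0.297 or above, and r between 0.14 and 0.24 without the 2 farthest mice. Sik1 with Pde4d had r = 0.53 (permutation p = 0.0689, adjusted 0.31) and rho = -0.05 (permutation p = 0.81, adjusted 0.929), and r was 0.12 without the 2 mice farthest from the median of Sik1.

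**Figure D5:**
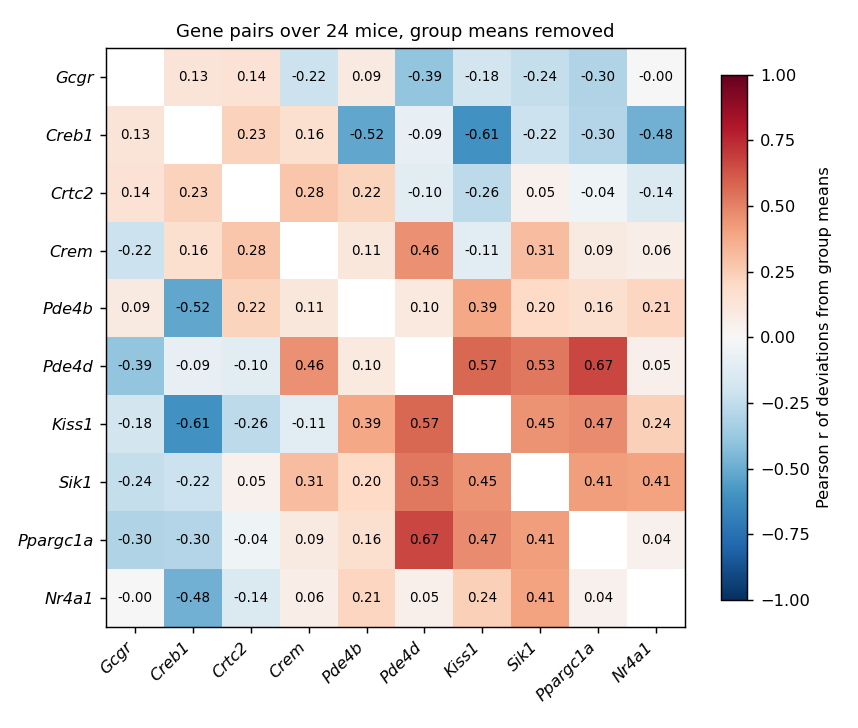
Pearson r (colour and printed value) between each pair of the 10 genes over 24 mice after removal of the group means. Pde4d has positive values with Kiss1 and Ppargc1a (0.57 and 0.67), Creb1 has negative values with Kiss1 and Pde4b (-0.61 and -0.52), and none of the 45 pairs passed after adjustment.

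Likeness was ranked among the genes whose brightest probe had a value in all 24 mice. Those whose deviations from the group means most resembled those of Kiss1 were Tspan31 (Pearson r 0.82), Stap1 (0.81), Etnk2 (0.79), Slc22a3 (0.78) and Cisd3 (0.77). For Sik1 they were Map3k1 (0.79), Srrm4 (0.79), Fgfr1 (0.75), Jund (0.74) and Lcor (0.73). These are the top 5 each of the genes ranked and are given with no test. None of the 10 genes is among them.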

How the data were processed

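Liver RNA of 24 mice was hybridised to Agilent 1-colour mouse arrays (62976 spots), 1 per mouse, on 3 slides of 8. The authors deposited the scanner output (Agilent Feature Extraction 10.10.1.1, per the submitters' processing notes), whose median, mean and processed signals are intensities without between-array normalisation, per the file headers. The authors also deposited a table of filtered, quantile normalised log2 median signal for 32176 probes, used as an alternative. Marks for outlier spots and spots well above background are scores of 0 or 1 per the file headers.

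Log2 median signals were averaged per probe without outlier spots, dim probes were removed and arrays quantile normalised. Groups were compared by limma 3.58.1 (lmFit and eBayes on group means, all 24 arrays, R 4.3.3), two-sided, with Benjamini-Hochberg adjustment over 30003 probes per comparison. The scripts were tested on simulated data. Correlations used numpy 2.4.6 and scipy 1.17.1. The genes and pathway lists were chosen with earlier results of these data known. Named pathway genes were those called in HFoleic against reference plus, per list, the 2 brightest not called; for likeness, the 5 highest r. Alternatives were the 75th percentile of the processed signal, normexp (offset 50), no filter, the authors' table, slide, row or replicate number as a block, the methods' t-test, 2-group fits, mean of a gene's probes, a clock score as covariate, and leaving out each mouse. Probe coordinates are those of the scanner files (mm9). The number of arrays limits the precision. P-values measure the spread between these mice.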

Additional observations from a re-analysis of the deposited data

Results flagged for a closer look

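Among 30 combinations of gene and group, 2 held a mouse far from the others, where chance alone gives about 1 in 20. Pde4d of reference replicate 5 was at 8.59, with the next reference mouse at 7.43, a gap of 0.635 of the range of the group. Crem of HFoleic replicate 6 was at 9.15, with the next HFoleic mouse at 9.45, a gap of 0.536 of the range.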

How the results depend on the processing

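Of the 10 genes, 3 passed in HFoleic against reference; the count was 1 without the filter on dim probes and ranged from 1 to 3 with 1 mouse left out (1 without reference replicate 1 or 7 or HFoleic replicate 2 or 4). In HFepa against reference, from which the genes were chosen, so that the count is descriptive, it was 1 as reported, and 0 under the 75th percentile of the processed signal, without the filter, with slide as a block, by the methods' t-test, with only the 2 groups in the fit, with the mean of a gene's probes and with the replicate block; it was 0 to 3 with 1 mouse left out (0 without reference replicate 1, 2, 4, 5, 7 or 9 or HFepa replicate 1, 2, 4, 6 or 7, and 3 without reference replicate 8). Pathway genes passing in HFoleic mice were 7, and 3 with the clock score as a covariate (6 to 8 with 1 mouse left out). In HFepa against reference 0 pathway genes passed, 1 with the replicate block, and 0 to 3 with 1 mouse left out (1 without HFepa or HFoleic replicate 3, 3 without reference replicate 8). Over all probes, calls in HFoleic against reference were 2170 (1100 with the clock score, 1601 to 3059 with 1 mouse left out), in HFepa against reference 118 (0 without the filter and by the methods' t-test, 13 with only the 2 groups in the fit, 47 under the 75th percentile, 55 with the mean of a gene's probes, 0 to 496 with 1 mouse left out) and in HFepa against HFoleic 0 (1 with the mean of a gene's probes, up to 14 with 1 mouse left out). The causes were not tested. Deviations from the group means of same-numbered mice had r of -0.30 to 0.35 over 22 pairs, with a median of 0.002 and 5 above 0.1. Differently numbered mice were not compared, so these values cannot tell whether the numbers pair the mice. With the replicate block 2 of the 10 genes passed in HFoleic mice, Gcgr having an adjusted p of 0.0953 by limma. In the fits of single genes no called direction turned.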
